A study of Arabidopsis thaliana with 18 samples.

Results

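The genes AT2G18370, AT5G38180 and AT2G15325, of the lipid transfer protein and 2S albumin superfamily, were followed through seed filling in 2 accessions of Arabidopsis thaliana. They were found as the loci that the platform gene table pairs with probe sets 265334_at, 249549_at and 257438_at, and are 3 of 13286 loci with a named probe set (the set of short probes that stands for a transcript on the array). AT2G18370 and AT2G15325 lie on chromosome 2 and AT5G38180 on chromosome 5. They were chosen from measured values of the same arrays, AT2G18370 for its change with stage in Col-0 and the other two for their difference between the accessions, so those differences are described here without a test.

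Lipid transfer proteins are small secreted proteins of plants, held together by disulfide bridges around a cavity that takes up lipids. They have been linked to the export of cutin, wax and suberin monomers to the cell wall, to defence and to signalling. The 2S albumins, abundant storage proteins of the seed, share their fold, and some relatives carry a lipid anchor that holds them at the outer face of the plasma membrane.

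Seeds came from plants of Col-0, from which the reference genome was read, and of C24, another natural accession, both untreated and grown with 16 h of light. Siliques, the seed pods, were harvested 8-9, 10-11 and 12-13 days after the flower opened, and only their dissected seeds were extracted. Each of the 3 replicates of the 6 groups was a pool of seeds from 48 siliques of 6 plants, and every pool held plants of both of the 2 experiments. The labels do not say that pools came from separate plants, and p-values here reflect pool to pool spread. A pool mixes embryo, endosperm and seed coat, and fewer cells of a type cannot be told apart from less RNA per cell. The values are log2 RMA signals (background-corrected, quantile-normalized and summarised per probe set by the authors), and RMA compresses differences near the bottom of its scale. Whether C24 transcripts match the probes as well as Col-0 transcripts do was not tested, so accession differences here are differences in signal. Differences between means were estimated with limma over all 18 arrays, and a probe set was called at a Benjamini-Hochberg adjusted p under 0.05 over 22746 probe sets.

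The source name field of all 18 samples names the other accession. The titles were used here, with which the descriptions and the accession field match, and the sign of every accession difference rests on them. Within groups Pearson's r between arrays was 0.993 to 0.997 over all probe sets. Replicate 1 of C24 at 8-9 d, checked after the values were seen, stood apart on genes that are low in C24. On the 34 probe sets lower in C24 by a log2 of more than 2 at both later stages, the 3 genes left out, its median log2 signal was 5.93, against 5.10 and 5.14 on replicates 2 and 3 and 7.84 to 7.94 in Col-0 at the same stage. It was the highest of the 3 arrays on 28 of the 34. On the 21 probe sets higher in C24 by the same margin it was at 7.30, between 7.23 and 7.49. The log2 of the summed signal of the 2 measured silique wall markers of 6 listed was also highest on this array, at 6.98. The range was 6.23 to 6.35 in Col-0, and the lowest C24 array of this stage was at 6.17. At 10-11 d the C24 arrays were at 6.52 to 6.60 and the Col-0 arrays at 6.21 to 6.35. At 12-13 d they were at 6.05 to 6.44 and 5.94 to 6.19. What part these features have in the results was not tested. Both values are given where leaving out replicate 1 of C24 at 8-9 d changed a call. They are also given where leaving it out moved a value of the 3 genes by over 1.5 times.

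The summed signals of the embryo and seed coat markers were high on all arrays. Signals were summed before taking the log2, so the brightest gene weighs most. For the 3 measured embryo storage and oil body genes of 9 listed, the log2 of the summed signal ran from 13.42-13.66 at 8-9 d to 14.80-14.82 at 12-13 d on Col-0 arrays. On C24 arrays it ran from 13.75-14.03 to 14.98-15.02. That of the 4 measured seed coat genes of 9 ran from 13.32-13.48 to 10.75-11.02 and from 12.80-13.09 to 10.85-11.00. From 8-9 to 12-13 d, 2 of the 3 embryo genes were called higher in each accession, beside 26.6% and 26.2% of all probe sets. The other, OLEO3, was called lower in Col-0, with means of 13.02 and 12.67, and was not called in C24 (13.19 and 13.14). The 1 measured endosperm marker of 7, AGL62, stayed at 3.18 to 3.66 and the 1 measured anther gene of 5 at 3.72 to 4.24 on all arrays, both near the bottom of the scale. A sign of RNA quality, the mean excess of 3' over 5' log2 signal in the actin control, also moved with both factors. It was 1.84, 1.29 and 0.93 at the successive stages of Col-0 and 0.85, 0.43 and -0.28 in C24. For GAPDH it was 0.89, 1.28 and 1.77, then 0.94, 1.44 and 1.19, and for ubiquitin 0.88, 0.52 and 0.44, then 0.94, 0.91 and 0.77. The part of tissue makeup and RNA quality in the differences below was not tested.

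The signal of AT2G18370 was higher at each later stage in both accessions. In Col-0 its log2 signal was 4.37, 4.57 and 4.38 at 8-9 d, 9.05, 5.95 and 8.61 at 10-11 d, and 12.38, 12.59 and 12.38 at 12-13 d. In C24 it was 5.51, 5.56 and 5.18, then 9.11, 10.50 and 10.62, then 12.84, 12.83 and 12.72. No 2 of the 6 groups overlapped, and the order from low to high was Col-0 then C24 at 8-9 d, Col-0 then C24 at 10-11 d, and Col-0 then C24 at 12-13 d. The group means were 4.44 ± 0.11, 7.87 ± 1.68 and 12.45 ± 0.12 in Col-0 and 5.42 ± 0.21, 10.08 ± 0.84 and 12.80 ± 0.06 in C24 (SD, n = 3), so the pools agreed closely at both ends of the interval and spread widely at 10-11 d.

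**Figure D1:**
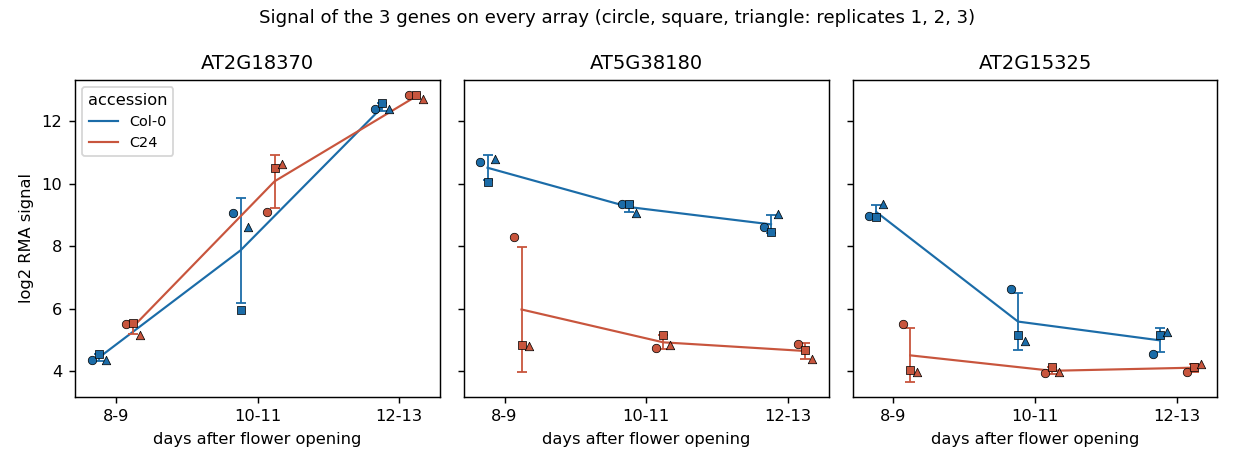
Log2 RMA signal (vertical axis) of AT2G18370, AT5G38180 and AT2G15325 on each of the 18 arrays against days after flower opening, Col-0 in blue and C24 in red, with circles, squares and triangles for replicates 1, 2 and 3, lines through the group means and bars of 1 SD (n = 3). AT2G18370 climbs from below 6 to above 12 in both accessions, AT5G38180 stays between 8.47 and 10.78 in Col-0 and is at 5.18 or lower on all C24 arrays except 1 at 8.30, and AT2G15325 is at 8.95 or higher only in Col-0 at 8-9 d.

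The rise of AT2G18370 in C24, whose arrays had no part in the Col-0 change that chose it, was a log2 of 7.38 (SE 0.49), or 166-fold, from 8-9 to 12-13 d (limma adjusted p = 3.38e-11). Of all probe sets 26.2% were called higher in C24 over this interval. Of the 6060 probe sets called higher in Col-0, 4400 were called higher in C24 as well. The gene was chosen for its rise in Col-0, so its call in C24 is not read as particular to it. It rose by 4.66 in the first step (SE 0.49, adjusted p = 9.09e-08) and by 2.72 in the second (SE 0.49, adjusted p = 0.000281), steps in which 20.7% and 9.77% of all probe sets were called higher. In Col-0, where the gene was chosen, the log2 differences were 3.43 in the first step and 4.58 in the second (SE 0.49 for each), adding to 8.01. Without replicate 2 of Col-0 at 10-11 d, the array at 5.95, they were 4.39 and 3.62 (SE 0.28), so which step was the larger rested on that array. These Col-0 values chose the gene, and nothing is read from the 16.8%, 14.8% and 26.6% of all probe sets called higher in the same comparisons. The difference between the accessions in the whole change was -0.63 (SE 0.69), given without a test.

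At 10-11 d AT2G18370 was higher in C24 than in Col-0 by a log2 of 2.21 (SE 0.49), or 4.62-fold, with all 3 C24 arrays above all 3 Col-0 arrays. The Col-0 arrays at this stage also enter the Col-0 steps, so the difference is given without a test, and nothing is read from the 9.92% of all probe sets called higher here. Replicate 2 of Col-0, at 5.95, set much of the size. Without that array the difference was 1.25 (SE 0.28), and over the 18 fits that each left out 1 array it lay between 1.25 and 2.80. The arrays at this stage also differed in how far they had moved along the first principal component of all probe sets, which holds 70.6% of the variance and runs from the youngest to the oldest seeds. Replicate 2 had the lowest Col-0 score, -0.99, against 6.96 and 15.6 on replicates 1 and 3, and replicate 1, the lowest C24 array of the gene, had the lowest C24 score, 21.2 against 26.5 and 25.5. All C24 scores at 10-11 d were above all Col-0 scores, and the part of this shift in the accession difference was not tested. The accession differences at 8-9 and 12-13 d, also given without a test, were 0.98 and 0.35 (SE 0.49).

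The 5 named probe sets whose log2 values followed AT2G18370 most closely, by Pearson's r over the 18 arrays, which share the stage trend, were AT4G18920 and AT2G16790 (0.989), AT1G30700 and AT4G19720 (0.988) and AT1G76230 (0.985). All had group means that increased with stage in both accessions and were higher in C24 at 10-11 d. AT1G30700 rose from 4.06 to 6.18 and 10.13 in Col-0 and from 4.04 to 8.13 and 10.54 in C24. AT1G76230 went from 3.20 to 5.26 and 7.74 and from 3.36 to 6.49 and 7.80.

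AT5G38180 had a high signal in Col-0 seeds and a low signal in C24 seeds at every stage. In Col-0 its log2 signal was 10.69, 10.06 and 10.78 at 8-9 d, 9.35, 9.35 and 9.06 at 10-11 d, and 8.61, 8.47 and 9.02 at 12-13 d. In C24 it was 8.30, 4.84 and 4.80, then 4.75, 5.18 and 4.86, then 4.89, 4.68 and 4.39. No C24 array reached the lowest Col-0 array, 8.47 at 12-13 d, but replicate 1 of C24 at 8-9 d, at 8.30, lay far above the other 8 C24 arrays. The 3 Col-0 groups did not overlap each other, whereas neighbouring C24 groups did.

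The log2 difference of AT5G38180 between C24 and Col-0 was -4.53 at 8-9 d, -4.32 at 10-11 d and -4.05 at 12-13 d (SE 0.54 for each), which is 23.1-fold, 20.0-fold and 16.5-fold lower in C24. These differences chose the gene and are given without a test. The group means were 10.51 ± 0.39, 9.25 ± 0.17 and 8.70 ± 0.29 in Col-0 and 5.98 ± 2.01, 4.93 ± 0.22 and 4.65 ± 0.25 in C24 (SD, n = 3). Without replicate 1 of C24 at 8-9 d the difference at that stage was -5.69 (SE 0.20), and those at the later stages kept their values with an SE of 0.17.

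With stage, AT5G38180 fell in Col-0 by a log2 of 1.81 (SE 0.54), or 3.50-fold, from 8-9 to 12-13 d. Its first step was -1.26 and its second -0.55 (SE 0.54 for each). The deviation of replicate 1 of C24 at 8-9 d enters the shared estimate of the spread behind these SEs. These stage changes rest on the arrays whose differences chose the gene and are given without a test. Nothing is read from the 27.6% of all probe sets called lower over the whole interval.

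In C24 the log2 change of AT5G38180 from 8-9 to 12-13 d was -1.33 (SE 0.54), with groups that overlapped. It too is given without a test, and nothing is read from the 27.5% of all probe sets called lower. The change rested on 1 array. Without replicate 1 at 8-9 d it was -0.17. The C24 steps were -1.05 and -0.27 (SE 0.54 for each). The first was 0.11 without that array, -1.62 without replicate 2 of the same group and -1.64 without replicate 3. Whether the accessions differ in the change from 8-9 to 12-13 d was not tested, and the difference was 0.48 (SE 0.77). It was 1.64 (SE 0.26) without replicate 1 of C24 at 8-9 d, and -0.09 and -0.11 without replicate 2 or 3 of that group.

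Next to AT5G38180 lie other genes of the family. In the gene order of the assembly TAIR10.1, AT5G38170 and AT5G38160 are 1 and 2 places before it and AT5G38195 is 3 places after it, and all 3 had a probe set of their own. Whether transcripts of one of these related genes also bind the probes of another was not tested. They were not chosen for their values, and they too had lower signals in C24, but by far smaller amounts. At 12-13 d the log2 difference was -0.66 for AT5G38160 (SE 0.10, limma adjusted p = 6.76e-05), -0.43 for AT5G38170 (SE 0.08, adjusted p = 0.00053) and -0.85 for AT5G38195 (SE 0.13, adjusted p = 7.98e-05), where 9.79% of all probe sets were called lower. At 10-11 d, with 7.99% of all probe sets called lower, they were at -0.63, -0.37 and -0.78 (adjusted p = 0.000138, 0.00261 and 0.00023). At 8-9 d, with 7.70% called lower, AT5G38195 was called at -0.62 (SE 0.13, adjusted p = 0.00219), while AT5G38160 at -0.29 (adjusted p = 0.0523) and AT5G38170 at -0.22 (adjusted p = 0.0653) were not.

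These 3 neighbours had high signals on every array. AT5G38160 had group means of 13.48, 13.53 and 13.24 in Col-0 and 13.19, 12.91 and 12.59 in C24. AT5G38170 had 13.91, 13.73 and 13.37 and then 13.69, 13.37 and 12.94, where RMA values are close to their top and differences are compressed. AT5G38195 had 11.57, 11.11 and 11.30 and then 10.96, 10.33 and 10.46. On replicate 1 of C24 at 8-9 d the 3 neighbours were at 13.34, 13.72 and 10.98, against 13.22 and 13.02, 13.66 and 13.70, and 10.90 and 11.00 on the other 2 arrays of the group. Their accession differences at this stage were only -0.29, -0.22 and -0.62. These values therefore cannot show whether the outlying value on that array was particular to AT5G38180.

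**Figure D2:**
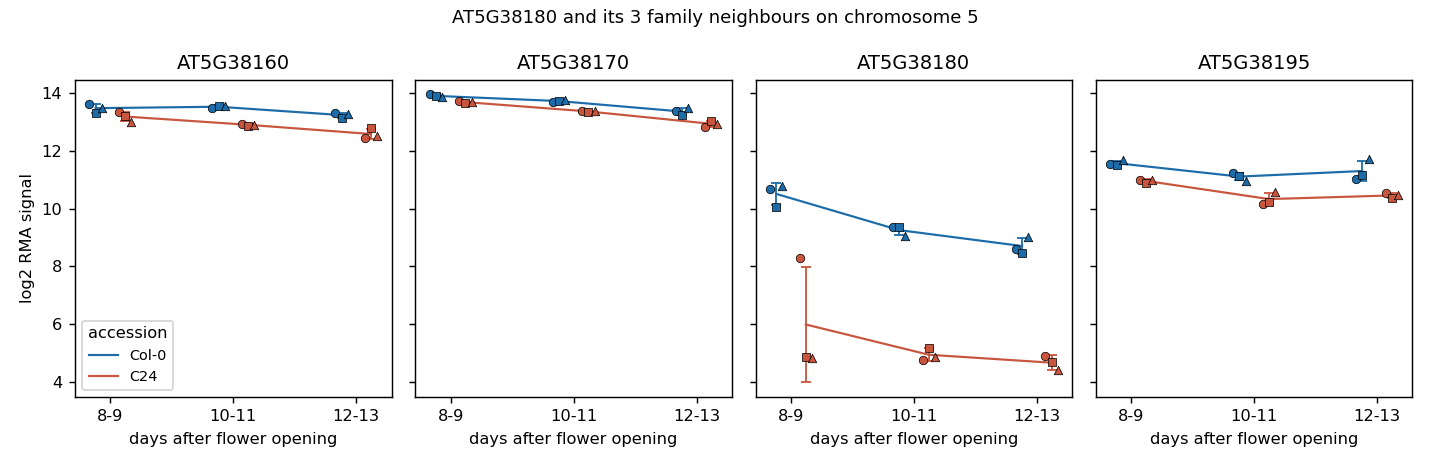
Log2 RMA signal (vertical axis) of AT5G38160, AT5G38170, AT5G38180 and AT5G38195, in their order on chromosome 5, against days after flower opening on each array, Col-0 in blue and C24 in red, with lines through the group means and bars of 1 SD (n = 3). The accession lines lie less than 1 apart in the 3 neighbours and 4.05 to 4.53 apart in AT5G38180.

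The 5 named probe sets closest to AT5G38180 over the 18 arrays, which share the split into accessions, were those of scpl42, a serine carboxypeptidase-like gene (r = 0.97), AT2G41650 (0.964), AT2G40010 (0.96), QQS (0.955) and AT1G28590 (0.952). All had lower means in C24 at each stage. AT2G41650 had means of 7.49, 7.09 and 6.88 in Col-0 and 4.21, 3.58 and 3.63 in C24, and AT1G28590 had 9.81, 10.06 and 8.99 and then 7.13, 5.94 and 6.27.

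AT2G15325 had a high signal in the youngest Col-0 seeds only. Its log2 signal there was 8.98, 8.95 and 9.36 at 8-9 d, then 6.63, 5.18 and 4.97 at 10-11 d, and 4.55, 5.18 and 5.25 at 12-13 d. In C24 it was 5.51, 4.04 and 3.99 at 8-9 d, then 3.94, 4.14 and 3.98, then 3.98, 4.14 and 4.24. The lowest array of Col-0 at 8-9 d, at 8.95, was clear of the highest array of any other group, at 6.63. Below it the order of the means was Col-0 at 10-11 d, Col-0 at 12-13 d, C24 at 8-9 d, C24 at 12-13 d and C24 at 10-11 d, and each of these neighbours in the order overlapped the next.

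The log2 difference of AT2G15325 between C24 and Col-0 was -4.58 at 8-9 d, -1.57 at 10-11 d and -0.87 at 12-13 d (SE 0.35 for each), or 24.0-fold, 2.98-fold and 1.83-fold lower in C24, with no overlap of the accessions at any stage. These differences chose the gene and are given without a test. The group means were 9.10 ± 0.23, 5.59 ± 0.90 and 4.99 ± 0.39 in Col-0 and 4.51 ± 0.86, 4.02 ± 0.11 and 4.12 ± 0.13 in C24 (SD, n = 3). Without replicate 1 of C24, again the highest array of its group, the difference at 8-9 d was -5.08 (SE 0.31).

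In Col-0 the log2 change of AT2G15325 from 8-9 to 12-13 d was -4.10 (SE 0.35), or 17.2-fold down. Most of it came in the first step, at -3.50 (SE 0.35), and nothing is read from the 20.1% of all probe sets called lower in that step. The second step was -0.60 (SE 0.35) and was -0.08 without replicate 1 of Col-0 at 10-11 d, the array at 6.63. In C24 the log2 change was -0.49 in the first step, 0.10 in the second and -0.39 over both (SE 0.35 for each), and without replicate 1 of C24 at 8-9 d the first was 0.00 and the whole 0.11. These stage changes rest on the arrays whose differences chose the gene and are given without a test. The change in C24 minus that in Col-0 was 3.71 (SE 0.49) and is the same measure as the loss of the accession difference with stage, so it has no test either. It was 4.21 without replicate 1 of C24 at 8-9 d (SE 0.41).

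The 5 named probe sets closest to AT2G15325 over the 18 arrays were AT5G52810 (r = 0.953), AT4G08530 (0.948), AT5G03350 (0.945), AT4G09480 (0.94) and AT1G13750 (0.938). All had their highest mean in Col-0 at 8-9 d, which follows from how they were picked. AT5G03350 was at 7.0 there and at 5.16 to 5.73 in the other groups. AT4G08530 is itself a listed gene of the family. Its log2 signal was 6.24, 6.16 and 5.78 in Col-0 at 8-9 d, 4.50, 4.48 and 4.27 at 10-11 d, and 3.90, 3.89 and 4.10 at 12-13 d. On the C24 arrays it stayed between 3.55 and 4.13.

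AT4G08530 had a log2 difference, C24 minus Col-0, of -2.24 at 8-9 d, of -0.60 at 10-11 d and -0.14 at 12-13 d (SE 0.13 for each). Its log2 change from 8-9 to 12-13 d was -2.10 for Col-0, against 0.01 for C24 (SE 0.13), and the difference between these changes was 2.11 (SE 0.19). Its likeness to AT2G15325 picked it out on these same arrays, so the values are given here without a test. Replicate 1 of C24 at 8-9 d, at 3.85, was not above the other arrays of its group here.

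**Figure D3:**
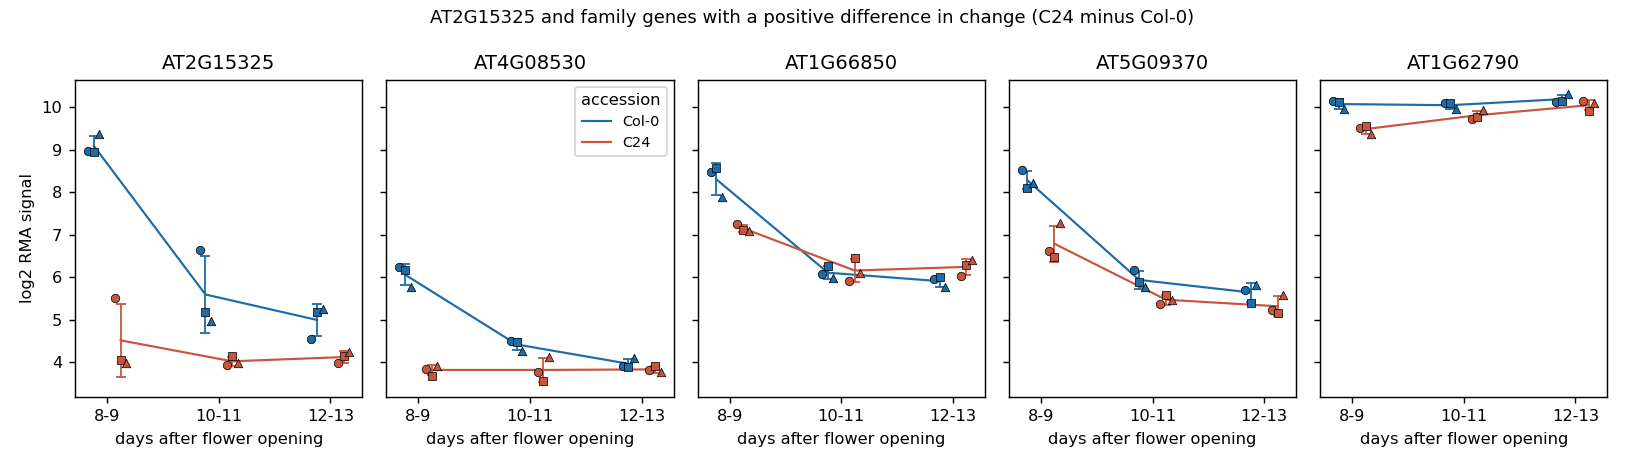
Log2 RMA signal (vertical axis) of AT2G15325 and of the 4 other family genes whose change from 8-9 to 12-13 d had a called positive difference, C24 minus Col-0, against days after flower opening on each array, Col-0 in blue and C24 in red, with lines through the group means and bars of 1 SD (n = 3). The call of AT4G08530, which was also picked out by its likeness to AT2G15325, is not read as a test. In AT2G15325, AT4G08530 and AT5G09370 the Col-0 line starts above the C24 line at 8-9 d, falls and comes closer to it. In AT1G66850 the Col-0 line starts above, at 8.31 against 7.15, and ends below, at 5.91 against 6.24. The C24 line also falls in AT1G66850 and AT5G09370, with log2 changes of -0.91 and -1.47. In AT1G62790 the C24 line rises towards the Col-0 line.

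The 3 genes did not follow 1 shared pattern, but they were chosen for different patterns, so nothing is read from this. Over the 18 arrays the Pearson correlation was 0.817 between AT5G38180 and AT2G15325, -0.425 between AT2G18370 and AT5G38180 and -0.595 between AT2G18370 and AT2G15325, values that reflect shared stage and accession groups. AT2G18370 and AT2G15325, both listed as lipid transfer proteins of type 1, moved in opposite directions with stage in Col-0, by 8.01 and -4.10. The 8.01 is the change that chose AT2G18370.

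The rest of the family was taken from a list of 107 loci compiled from knowledge of the family, since the gene tables used here give most of these loci by number only. Besides the 3 genes, 43 of the other 104 had a probe set with 1 gene, and statements cover these 43. They comprise 2 listed as type 1, 6 as type 2, 6 as related to DIR1 (a protein of systemic defence signalling), 11 as membrane-anchored, 14 as having a proline-rich or related leader, and 4 others. None of the 5 listed 2S albumin genes had such a probe set, and they were not analysed here. Of the 43, 10 were called in no comparison. The share of all probe sets called in none was not counted, so nothing is read from this number.

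Between the accessions, 13 of the 43 (30.2%) were called at 8-9 d, 6 higher and 7 lower in C24, against 19.4% of all probe sets. At 12-13 d 10 of 43 (23.3%) were called, 1 higher and 9 lower, against 22% of all probe sets. At 10-11 d 12 of 43 (27.9%) were called, 6 in each direction, against 17.9%, but only 6 without replicate 2 or 3 of Col-0 at that stage and 5 without replicate 2 of C24. The median log2 difference of the 43 was -0.04, 0.05 and 0.03 at the 3 stages, beside 0.01, 0.05 and 0.02 over all probe sets.

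At 8-9 d the called family genes highest in C24 were AT1G05450, higher by a log2 of 2.45 (SE 0.27, limma adjusted p = 6.5e-07), AT2G48130, by 1.31 (SE 0.14, adjusted p = 6.17e-07), and AT1G62510, by 0.95 (SE 0.19, adjusted p = 0.000893). Lowest, after AT4G08530, were AT5G09370 at -1.49 (SE 0.17) and AT4G33550 at -1.48 (SE 0.16). AT4G33550 was lower in C24 at all stages, with -1.57 at 10-11 d and -1.58 at 12-13 d (adjusted p = 2.86e-07 and 1.9e-07), as was AT5G38195. These were the only 2 of the 43 called lower at all 3 stages, and 0 were called higher at all 3, beside 2.67% of all probe sets in each direction. At 12-13 d AT4G22610 was lower by 1.31 in C24 (SE 0.11, adjusted p = 2.23e-08), while AT2G44300, the 1 gene called higher, was at 0.33 (adjusted p = 0.0393) and at 0.25 (adjusted p = 0.144) when scaled to reference genes. At 10-11 d AT3G58550 was at 1.54 (SE 0.50, adjusted p = 0.0365), AT1G62510 at 0.60 (adjusted p = 0.0297) and AT3G18280 at 0.47 (adjusted p = 0.0227), and each of these 3 calls was lost in at least 1 fit without an array, with adjusted p up to 0.273, 0.221 and 0.0905.

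**Figure D4:**
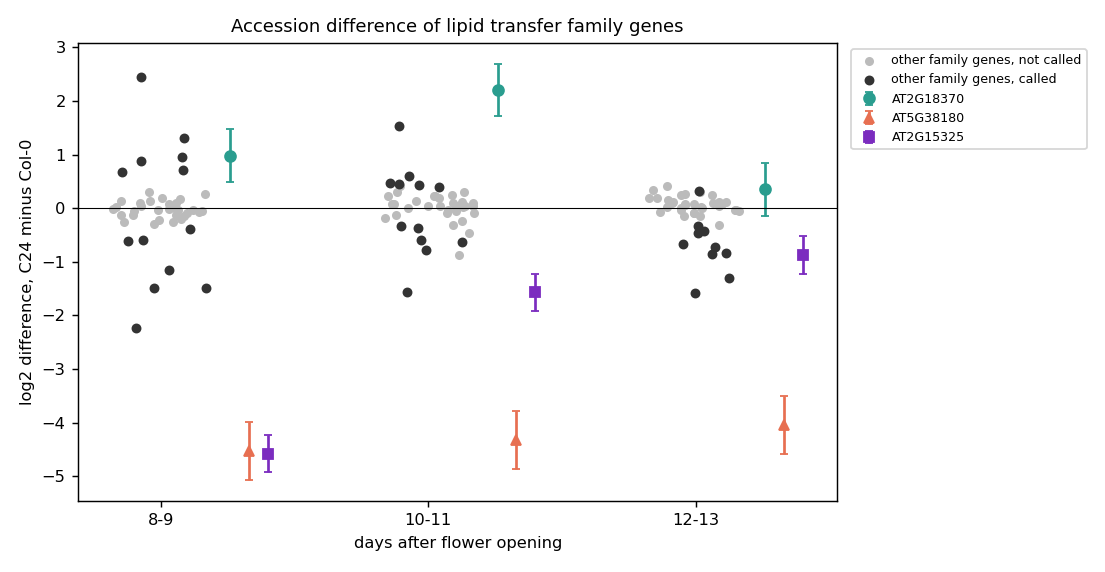
Log2 difference, C24 minus Col-0 (vertical axis), at each stage for the 43 other family genes, black where called and grey where not, spread sideways at random, and for AT2G18370, AT5G38180 and AT2G15325 with bars of 1 SE. The other family genes lie between -2.24 and 2.45, and AT5G38180 lies below all of them at each stage, a position that follows from how it was chosen.

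With stage, 22 of the 43 (51.2%) were called in Col-0 from 8-9 to 12-13 d, 12 higher and 10 lower, beside 54.2% of all probe sets, and 30 (69.8%) in C24, 19 higher and 11 lower, beside 53.7%. Scaled to the 11 measured reference genes the Col-0 split was 27 higher and 9 lower. That scaling moved every probe set by 0.21 in this comparison. The share of all probe sets called after it was not counted, so nothing is read from the scaled split. The same 12 genes counted as higher in Col-0 were called higher in C24 as well, 9 were called lower in both, and 0 went in opposite directions. Of all probe sets 19.3% were called higher in both, 22.7% lower in both and 0.58% in opposite directions. The median log2 change was 0.12 in Col-0 and 0.20 in C24, beside 0.03 and 0.04 over all probe sets.

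By step, 16 of 43 (37.2%, 9 higher and 7 lower) were called in the first and 15 (34.9%, 6 and 9) in the second in Col-0, beside 36.9% and 31.3% of all probe sets. In C24 23 (53.5%, 14 and 9) and 12 (27.9%, 3 and 9) were called, beside 44.2% and 22.1%. After scaling to reference genes these splits became 14 and 7, then 9 and 8, in Col-0, and 21 and 7 in the first step of C24. Shares of all probe sets were again not counted after scaling, and nothing is read from these scaled splits.

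The largest rises among the 43 were in genes listed as membrane-anchored. AT3G58550 had log2 rises of 7.65 (Col-0) and 7.61 (C24, SE 0.50 for each, limma adjusted p = 2.09e-11 and 2.67e-11). Like AT2G18370 it spread at 10-11 d, with 8.5, 5.34 and 7.20 in Col-0 and 7.37, 8.96 and 9.32 in C24, replicate 2 of Col-0 and replicate 1 of C24 again being the lowest of their groups. AT2G48130 rose by 6.35 and 4.96 (SE 0.14). Its first step was 6.35 in Col-0 and 5.46 in C24, to 11.26 and 11.68 at 10-11 d. Its second step was 0.00 in Col-0 and a called fall of -0.51 in C24 (limma adjusted p = 0.0121). The whole rise of AT1G05450 was 5.00 and 2.82 (SE 0.27), and that of AT3G22620 was 4.28 and 2.93 (SE 0.13). In these last 3 the C24 signal at 8-9 d was the higher one, and the difference in change, which was called in 9.14% of all probe sets (3.96% higher and 5.19% lower), was called at -1.40, -2.18 and -1.35 (adjusted p = 7.01e-05, 0.000515 and 4.71e-05).

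Among the 43, AT5G48490 fell most, with a log2 change of -4.56 (Col-0) and -5.02 (C24, SE 0.21 for each, limma adjusted p = 5.43e-14 and 1.59e-14). AT5G01870, a listed type 1 gene, came next at -3.74 and -3.44 (SE 0.41, adjusted p = 7.9e-08 and 3.03e-07). The changes were -2.64 and -1.47 in AT5G09370 (SE 0.17) and -2.21 and -2.20 in AT2G27130 (SE 0.09), all called. Both genes are listed as membrane-anchored. AT5G48490 went from 9.36 to 5.76 and 4.80 in Col-0 and from 10.07 to 5.83 and 5.05 in C24, so most of its fall lay in the first step, as did that of AT2G15325 in Col-0. AT5G01870 was at 10.33, 9.55 and 6.59 in Col-0 and at 10.20, 8.68 and 6.75 in C24, falling most in the second step, and its C24 arrays at 12-13 d had an SD of 1.5. Of the other 6 genes of the listed type 2 group, to which AT5G38180 belongs, 3 were called lower with stage in Col-0, and 5 in C24, beside 27.6% and 27.5% of all probe sets, with AT1G48750 the 1 gene called higher in each (1.00 and 0.67). Between the accessions 3, 3 and 4 of these 6 were called lower in C24 at the 3 stages, beside 7.70%, 7.99% and 9.79% of all probe sets, 1, 3 and 3 of them being the neighbours of AT5G38180, and AT3G18280 was the 1 called higher, at 8-9 and 10-11 d.

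**Figure D5:**
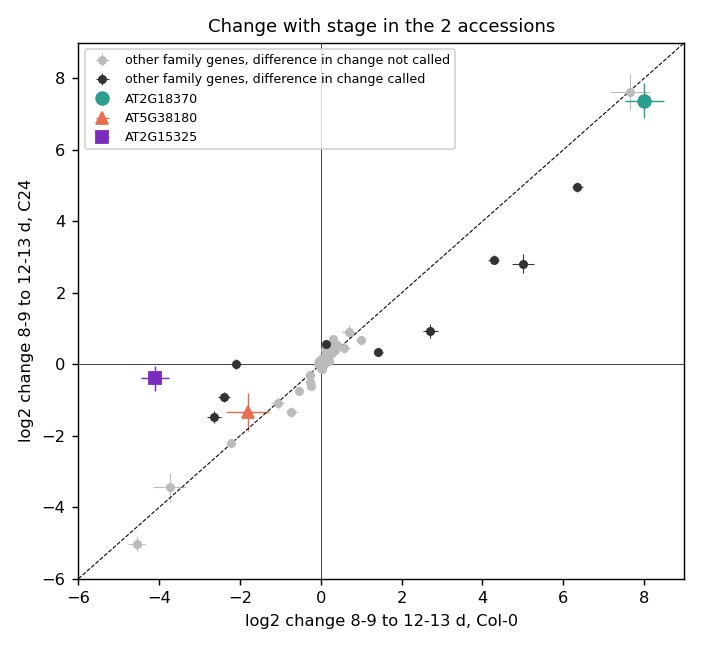
Log2 change from 8-9 to 12-13 d in C24 (vertical axis) against that in Col-0 (horizontal axis) for 46 family genes, with bars of 1 SE, black where the difference between the accessions was called, grey where not, and coloured symbols for AT2G18370, AT5G38180 and AT2G15325. The dashed line marks equal change, and AT2G15325, at -4.10 in Col-0 and -0.39 in C24, lies farthest from it, a position that follows from how it was chosen.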

How the data were processed

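The deposited values are log2 RMA signals of 1-colour Affymetrix arrays, 1 array per seed pool, per the submitters' processing notes; the RMA version was not given in the sources used here. Groups follow the sample titles. The 64 control probe sets were left out. The platform gene table leaves 8730 tested probe sets unnamed and gives 503 several genes; names are used only for probe sets with 1. Group means were fitted by lmFit and eBayes of limma 3.58.1 under R 4.3.3, with 12 residual degrees of freedom plus 8.331 from the prior, a step tested on simulated data. An array has no read depth; 3 arrays per group limit the precision.

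The members and gene lists were chosen with earlier results of these data known. Besides the 3 genes, the text names the 3 highest and 3 lowest called family genes per accession comparison and per whole change, family genes within 20 genes of a member, and the 5 probe sets most like each member. AT1G66850, AT1G48750 and AT1G62790 were named after their values were seen, and the first principal component and the check of replicate 1 of C24 were added then too.

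Same-numbered replicates of the groups compared correlated in their deviations from the group means with r of -0.156 to 0.2, over 0.1 in 5 of 27 pairs, so the numbers were not taken to pair samples. Alternatives were quantile normalization, scaling to 11 reference genes, a filter leaving out the 25% dimmest probe sets, a trended robust eBayes, the 2 groups compared alone, a replicate block and leaving out each array.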

Additional observations from a re-analysis of the deposited data

Results flagged for a closer look

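The change from 8-9 to 12-13 d differed between the accessions, by the limma test of that difference, in 9 of the 43 other family genes (20.9%, beside 9.14% of all probe sets, 3.96% higher and 5.19% lower). As C24 minus Col-0 on the log2 scale, it was positive in AT4G08530 (2.11, also picked out by its likeness to AT2G15325 and given without a p), AT1G66850 (1.49, adjusted p = 8.36e-05), AT5G09370 (1.17, adjusted p = 0.00307) and AT1G62790 (0.45, adjusted p = 0.0394). It was negative in AT1G05450 (-2.18, adjusted p = 0.000515), AT1G62510 (-1.78, adjusted p = 0.000108), AT2G48130 (-1.40, adjusted p = 7.01e-05), AT3G22620 (-1.35, adjusted p = 4.71e-05) and AT4G22610 (-1.06, adjusted p = 0.000116). AT1G62510 changed sides, from 0.95 higher in C24 at 8-9 d (adjusted p = 0.000893) to -0.83 at 12-13 d (adjusted p = 0.00265). Scaled to the reference genes, 3 were called positive and 7 negative, with the share of all probe sets under that scaling not counted.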

How the results depend on the processing

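The 27 differences of the 3 genes kept their direction and, where tested, their side of the threshold under quantile normalization and without dim probe sets. With a replicate block they did so too, AT2G18370 in C24 staying at 7.38 (adjusted p = 2.7e-10), and the block left the family counts within 1.5 times. Scaling to 11 reference genes, which moved all probe sets by -0.11 to 0.21, gave a Col-0 change of 8.23 for AT2G18370 and 36 called family genes over the whole Col-0 change in place of 22. How many of all probe sets were called after that scaling was not counted. For AT5G38180, the 2 groups compared alone gave Col-0 steps of -1.26 and -0.55 and a C24 whole change of -1.33. The trended robust eBayes also gave -1.33 for the last. These stage changes are again given without a test, since their arrays chose the gene. Leaving out 1 array gave AT5G38180 -1.48 to -1.12 and -0.71 to -0.43 for the Col-0 steps. It gave -1.64 to 0.11 for the first C24 step and -1.92 to -0.17 for the whole C24 change. The difference in change of AT5G38180 ranged from -0.11 to 1.64, turning to -0.09 and -0.11 without replicate 2 or 3 of C24 at 8-9 d, and that of AT2G15325 from 3.45 to 4.21, alternatives added after seeing the data. The family count at 10-11 d ranged from 5 to 12. The causes were not tested. With 3 arrays a group, small changes and changes near the bottom of the scale are poorly measured.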
